A study of Mus musculus with 4 samples.

Results

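Slc28a2 belongs to the nucleoside transporters of mouse, a set made of the concentrative transporters Slc28a1, Slc28a2 and Slc28a3 and the equilibrative transporters Slc29a1, Slc29a2, Slc29a3 and Slc29a4. The 7 genes were taken by symbol from the 52459 genes of the count table, and all 7 were listed in it. They were measured in intestinal stem cells (ISCs) of wild-type (WT) C57/Bl6 mice that received no treatment, at 2 months of age (ISC_2mth, young) or 22 months (ISC_22mth, old). Each age had 2 libraries, and each library was made from ISCs sorted out of 5 pooled animals, so that differences among animals are averaged within a pool. ISCs were sorted from crypts of scraped small intestine by surface markers (the SM6 strategy, which keeps EPCAM+ cells with high CD44 and EPHB2 and excludes CD31 and CD45), and full length (FL) libraries were made after isothermal amplification of the RNA from a single primer (SPIA). The question was which of these genes differ between young and old ISCs. The set was selected on the log2 fold change of Slc28a2 in this same contrast, so values between ages are given for its members as a description, and nothing is concluded from a test of them.

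Nucleosides are the sugar-linked bases from which cells rebuild nucleotides, and they are too polar to cross membranes unaided. Concentrative transporters move them into cells against their gradient with sodium: Slc28a1 prefers pyrimidine nucleosides, Slc28a2 prefers purine nucleosides such as adenosine and guanosine together with uridine, and Slc28a3 accepts both kinds. Equilibrative transporters let nucleosides flow down their gradient. Slc29a1 and Slc29a2 do so at the cell surface, Slc29a3 acts mainly in lysosomes and other inner membranes, and Slc29a4 carries monoamines and also adenosine. In the intestinal epithelium concentrative transporters are known for the uptake of dietary nucleosides, and dividing cells use imported nucleosides in salvage pathways.

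Slc28a2 lies on chromosome 2 from 122426477 to 122461137 (plus strand, GRCm38, GENCODE vM21) and has a close paralog, Slc28a2b, which the count table lists under its older name Gm14085. Slc28a2b starts 58.5 kb further along the same strand, from 122484941 to 122528040. The coding sequences of both genes have 1980 bases, and 94.8% of their aligned bases were identical, with 1 run of 192 identical bases. Of the 50-nt stretches of Slc28a2 transcripts (50 nt is the length to which longer reads were cropped), 35.7% also occur in Slc28a2b transcripts, and reads from these stretches cannot be assigned to one gene. Of the 50-nt stretches of Slc28a2b, 30.3% occur in Slc28a2. Both kinds of stretch are shown here because they decide what the count of Slc28a2 can mean. The first pair is the coding stretch with the most differences, at chr2:122447850-122447899 for Slc28a2 and chr2:122494297-122494346 for Slc28a2b, with the 14 bases that differ in capitals.
Slc28a2: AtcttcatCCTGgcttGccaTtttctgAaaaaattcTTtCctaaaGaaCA
Slc28a2b: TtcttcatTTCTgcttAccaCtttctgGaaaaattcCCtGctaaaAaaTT
The second stretch, at chr2:122446886-122446935 for Slc28a2 and chr2:122493335-122493384 for Slc28a2b, is the same in both genes and holds no base that tells them apart.
Slc28a2 and Slc28a2b: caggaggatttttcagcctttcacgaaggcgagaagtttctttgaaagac
Among the 1102 positions where a 50-base coding stretch lies within 1 exon of each gene, 342 had no difference and 338 had 1 difference, and the median was 1. Slc28a2b was counted at 0 reads in each of the 4 libraries, although 69.8% of its exonic bases that can start a 50-nt stretch start one found in no other gene. A count of 0 allows up to 3 counts per library, which corresponds to between 0.199 and 0.245 normalized CPM. No read was thus assigned to the paralog at either age.

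The sequences before the starts of the paralogs are shown because only Slc28a2 had reads. They are the 250 bases upstream of the RefSeq start of each gene (GRCm38.p6, plus strand, 5′ to 3′), at chr2:122426185-122426434 for Slc28a2 and chr2:122484691-122484940 for Slc28a2b. Capitals mark matches, on either strand, to GATAA (GATA factors), TTTAT (CDX factors) or GTTAAT (HNF1), factors known in the intestinal epithelium.
Slc28a2: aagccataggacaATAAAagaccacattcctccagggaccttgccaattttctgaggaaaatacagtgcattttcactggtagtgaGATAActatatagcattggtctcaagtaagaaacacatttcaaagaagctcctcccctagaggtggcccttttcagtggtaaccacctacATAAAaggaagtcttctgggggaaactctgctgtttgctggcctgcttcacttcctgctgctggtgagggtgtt
Slc28a2b: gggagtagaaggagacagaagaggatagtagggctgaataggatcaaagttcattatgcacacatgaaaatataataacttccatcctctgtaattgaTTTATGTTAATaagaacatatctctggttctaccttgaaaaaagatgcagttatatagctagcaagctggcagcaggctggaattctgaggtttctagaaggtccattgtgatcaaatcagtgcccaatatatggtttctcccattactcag
In contrast to the coding sequences, these windows were identical at 56.9% of 216 aligned bases, with 68 gapped positions. Slc28a2 had 1 match to GATAA, which occurs in 22.6% of the same windows of 32851 RefSeq starts, and 2 to TTTAT, which occurs in 37.3%. Slc28a2b had 1 match to TTTAT and 1 to GTTAAT (6.43% of windows), which lie next to each other without overlap. Motifs of the 4 kinds of factor that the study singled out by prediction were also searched. TGANTCA for AP-1 (which holds FOSB), GCGNGGGCG for EGR1 and the motif of interferon regulatory factors such as IRF1 were in neither window, and they occur in 6.75%, 4.7% and 2.98% of all windows. TGACNNNGC, the motif of NRF2 (encoded by Nfe2l2), was also in neither and occurs in 10.2%. A match describes letters only and does not show binding.

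Depth was between 11662654 and 15975698 counts per library, of which between 62.6% and 73.8% lay on mitochondrially encoded genes, with more of them in old ISCs. Normalization without mitochondrial and ribosomal RNA-like loci called 312 genes instead of 309 and gave log2 fold changes of -3.575 for Slc28a2 and 0.47 for Slc28a3. Levels are given as normalized CPM, which is the count of a gene relative to the library size after TMM scaling. A gene was kept if a library held over 5 reads of it at over 1 CPM, and the 13692 genes left were tested by edgeR (quasi-likelihood), with p-values adjusted after Benjamini and Hochberg (FDR). The label was checked with 10 stem cell markers, among them Lgr5, Olfm4 and Ascl2. All 10 were kept and their summed level was 2901 and 2732 CPM in the young pools against 2735 and 2938 CPM in the old. Most of this sum came from Olfm4 (means of 1264 and 1199 CPM in young and old ISCs) and Slc12a2 (854 and 1016 CPM). Both old pools lay below both young pools for Lgr5, Axin2, Sox9 and Tnfrsf19, beside 23.6% of all genes tested. They lay above for Ascl2 and Slc12a2, beside 24%, and the pools of the other markers overlapped. With the quasi-likelihood test of edgeR, 0 of the 10 markers had FDR under 0.05, 2 had an unadjusted p under 0.05 with higher and 4 with lower levels in old ISCs (16.9% of all genes tested had such a p), and 1 (Axin2, lower) was called by limma voom, by DESeq2 and by the likelihood ratio test. All libraries also held reads of Muc2, Lyz1 and other genes of differentiated cells. Old pool 1 stood apart by its Paneth cell genes and young pool 1 by low enteroendocrine genes, whose values follow the transporters.

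Of the concentrative transporters, Slc28a2 was lower in both old pools, Slc28a3 was higher in both old pools, and Slc28a1 had few reads. Slc28a2 had 199 and 178 counts in the young pools against 13 and 14 in the old pools. These were 13.7 and 11.8 normalized CPM in the former and 0.982 and 1.14 in the latter. The pools of each age lay close together and the ages did not overlap, as for 23.6% of all genes tested with both old pools below. The mean was 12.7 ± 1.37 CPM (SD, n = 2 pools) in young ISCs and 1.06 ± 0.115 CPM (n = 2) in old ISCs, a log2 fold change of -3.57 (standard error 0.30), or 11.9-fold lower. From counting error alone, the ratio of old to young reads was 0.0833 with an exact 95% interval of 0.0542 to 0.123. The 22nd lowest log2 fold change of all genes tested was that of Slc28a2, and among the 8297 genes with a mean of at least 5 CPM it was the lowest, followed by -2.03 for Mir6236. Fits without 1 of the pools gave values from -3.68 to -3.46. In pools of sorted cells, fewer cells with Slc28a2 RNA and less of it per cell cannot be told apart.

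Slc28a3 lies on chromosome 13 from 58545399 to 58610877. It had 181 and 162 counts in the young pools against 229 and 181 in the old, or 12.5 and 10.7 CPM against 17.3 and 14.8 CPM. The old pools were the higher ones without overlap, as they were for 24% of all genes tested. Its mean was 11.6 ± 1.24 CPM in young ISCs and 16.1 ± 1.77 CPM in old ISCs, a log2 fold change of 0.47 (standard error 0.19), which ranged from 0.35 to 0.58 without 1 of the pools. Its exons overlap those of Gm3131 on the opposite strand over 237 bases, and reads there cannot be told apart without strand. The other concentrative transporter, Slc28a1 on chromosome 7 from 81114799 to 81170416, did not pass the filter. It had 3 and 4 counts in the young pools against 13 and 6 in the old. The old pools were again the higher ones without overlap, beside 24% of all genes tested. The ratio of summed old to summed young reads was 3.16, with an exact 95% counting interval of 1.27 to 8.89. This interval leaves out the spread between pools. The young pools were near the floor of 3 counts per library, and old pool 1 had the highest count.

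**Figure D1:**
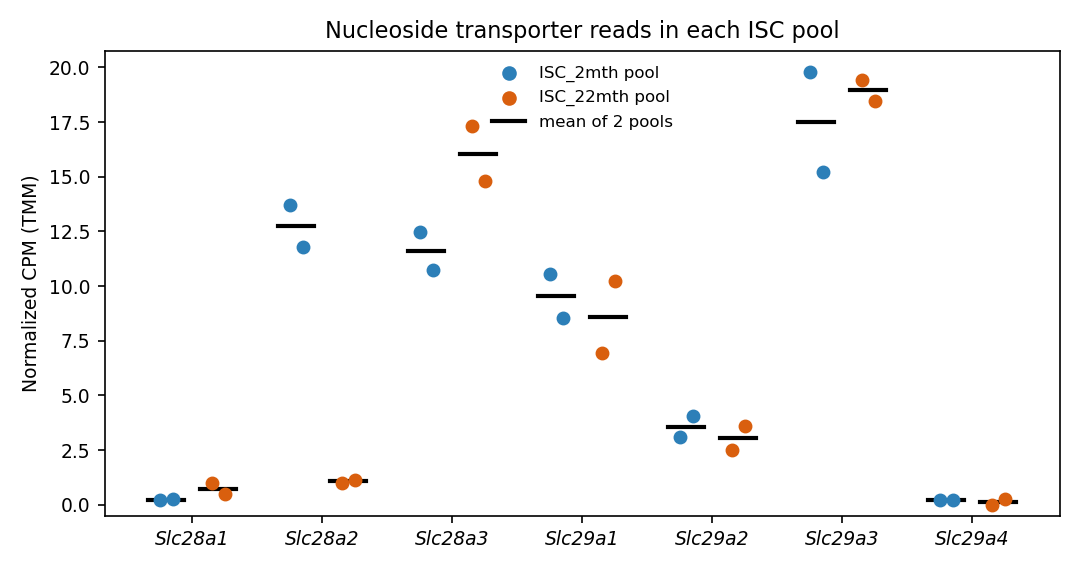
Normalized CPM (vertical axis) of the 7 nucleoside transporters in each ISC pool. Points are pools, blue for ISC_2mth and orange for ISC_22mth, and bars are means of 2 pools. The Slc28a2 points of old ISCs lie at 0.982 and 1.14 CPM against 13.7 and 11.8 CPM in young ISCs, while the pools of both ages overlap for Slc29a1, Slc29a2 and Slc29a3.

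The 3 equilibrative transporters that were kept had overlapping pools. Slc29a1, on chromosome 17 from 45585200 to 45599606, had 153 and 129 counts in the young pools against 92 and 125 in the old. The pools of both ages overlapped, with means of 9.54 ± 1.42 CPM and 8.59 ± 2.31 CPM (n = 2 each). Its log2 fold change was -0.15 (standard error 0.24), and it shares 275 exonic bases with Gm17080 on the opposite strand. Slc29a2, the second transporter of the cell surface, lies on chromosome 19 from 5023860 to 5031972. It had 45 and 61 counts in the young pools against 33 and 44 in the old, or 3.57 ± 0.662 CPM against 3.05 ± 0.781 CPM. Its pools also overlapped, with a log2 fold change of -0.23 (standard error 0.35). Slc29a3, the transporter of lysosomes on chromosome 10 from 60712072 to 60752794, had 287 and 230 counts in the young pools against 257 and 226 in the old. Its means were 17.5 ± 3.22 CPM and 18.9 ± 0.662 CPM with overlapping pools, and the log2 fold change was 0.12 (standard error 0.18). Slc29a4, on chromosome 5 from 142692512 to 142722490, did not pass the filter, with 3 counts in each young pool and 0 and 3 counts in old ISCs, which does not exceed the floor in any library.

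In all, 5 of the 7 transporters passed the filter. Slc28a2 alone of these 5 had FDR under 0.05, against 2.26% of all genes tested (1.63% higher and 0.628% lower in old ISCs), and nothing is read from this count because the contrast chose the gene. Without normalization beyond total counts, all genes tested had a median log2 fold change of -0.50. Relative to that shift the transporters kept values near those above, between -3.57 for Slc28a2 and 0.47 for Slc28a3, but the raw value of Slc28a3 became -0.03 and that of Slc29a3 -0.38.

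**Figure D2:**
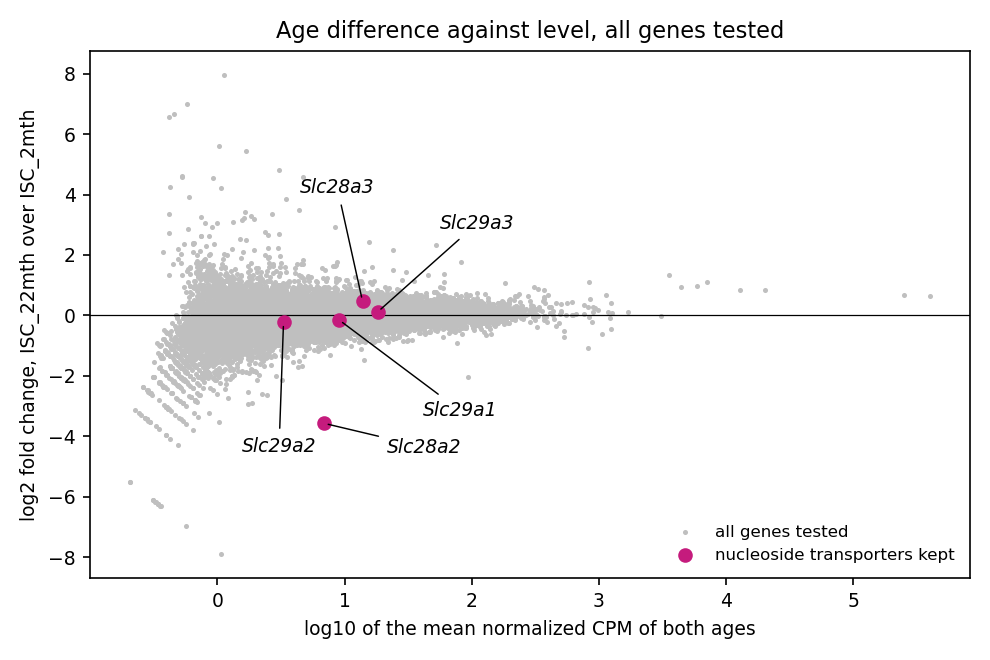
Log2 fold change between ages (vertical axis, ISC_22mth over ISC_2mth) against the log10 of the mean normalized CPM (horizontal axis) for the 13692 genes tested (grey), with the 5 transporters kept in pink. Slc28a2 lies at -3.57, below the other genes of at least 5 CPM, and the other 4 transporters lie between -0.23 and 0.47 within the grey cloud.

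Compared per length, with normalized CPM divided by kb of exonic sequence, Slc28a2 had the highest mean of the 7 transporters in young ISCs and the fifth in old ISCs. In young ISCs the level per kb was 3.03 ± 0.325 for Slc28a2, 3.00 ± 0.552 for Slc29a3, 2.38 ± 0.354 for Slc29a1, 1.47 ± 0.157 for Slc28a3 and 1.18 ± 0.219 for Slc29a2 (SD, n = 2 pools each). Slc28a1 and Slc29a4 followed at 0.0799 and 0.0708 CPM per kb. The pools of Slc28a2 and Slc29a3 overlapped, as did those of Slc29a3 and Slc29a1 and those of Slc28a1 and Slc29a4, so these neighbours in the order did not differ beyond their spread. In old ISCs the order of levels per kb was Slc29a3 with 3.25 ± 0.114, Slc29a1 with 2.14 ± 0.577, Slc28a3 with 2.03 ± 0.224, Slc29a2 with 1.01 ± 0.259, Slc28a2 with 0.253 ± 0.0273 and Slc28a1 with 0.250 ± 0.118. Slc29a4 was last at 0.0429 CPM per kb. Here the pools of Slc29a1 and Slc28a3 overlapped, and so did those of Slc28a2 and Slc28a1.

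Because reads of shared stretches may have been left out for Slc28a2, levels were also taken per kb of exonic bases that start a stretch found in no other gene. This length was 2.64 kb for Slc28a2 instead of 4.21 kb, and between 95.3% and 100% of the bases of the other 6 genes were kept. The level of Slc28a2 then became 4.84 ± 0.519 CPM per kb in young ISCs, above the next gene, Slc29a3 with 3.09 ± 0.569, in every pool. In old ISCs it was 0.404 ± 0.0436 CPM per kb, still below Slc29a2 with 1.04 ± 0.268. No transporter changed its place in the order in either age. Shares of the family follow from these levels and mostly restate the value of Slc28a2 that chose the set. Per kb of all exonic bases, concentrative transporters made up 40.8% and 40.9% of the summed level of all 7 genes in the young pools, against 31.9% and 24.8% in the old. Per kb of unique bases these shares were 48.5% in each young pool against 33.4% and 26.5% in the old.

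**Figure D3:**
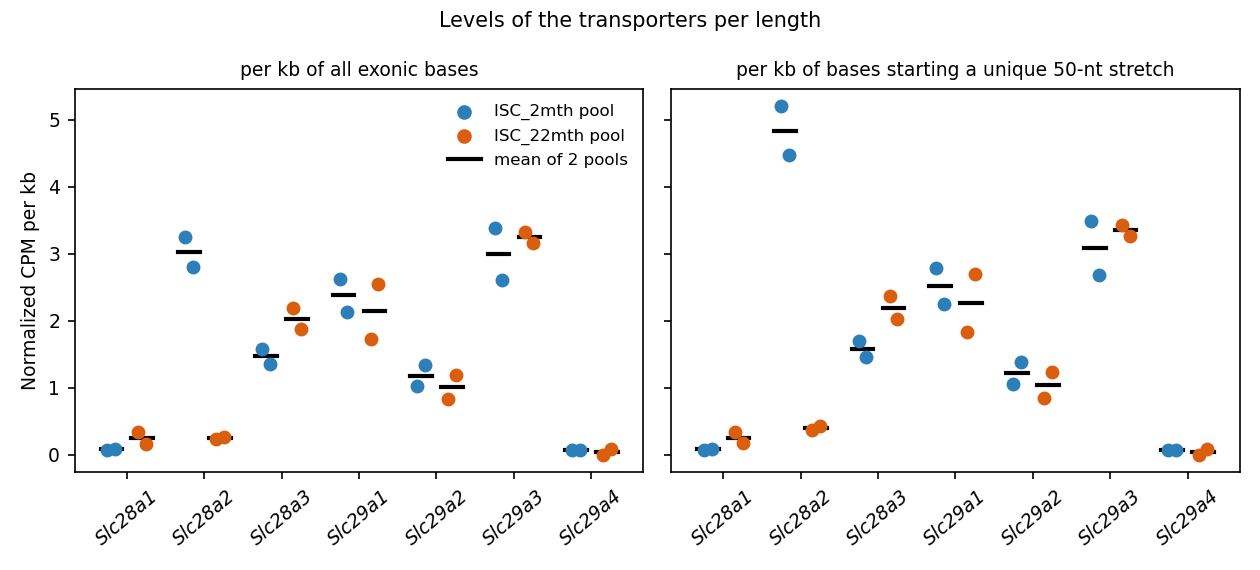
Levels of the transporters in normalized CPM per kb (vertical axis), left per kb of all exonic bases and right per kb of bases that start a 50-nt stretch unique to the gene. Points are pools (blue ISC_2mth, orange ISC_22mth) and bars are means. Young ISCs had a mean Slc28a2 level of 3.03 on the left and 4.84 on the right, and old ISCs 0.253 and 0.404.

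Several marker genes of other cell types differed between the same pools, and their part in the values of Slc28a2 was not tested. Of all genes tested, 1.63% were called higher in old ISCs. Of 8 enterocyte markers, Fabp1, Fabp2 and Sis were higher in old ISCs with FDR under 0.05 (Fabp2 not by DESeq2), and the list summed to 387 and 519 CPM in the young pools against 879 and 802 CPM in the old. Of 8 Paneth markers, Defa17 and Defa24 were higher, with sums of 937 and 721 CPM in young ISCs but 2073 and 805 CPM in old ISCs, so that old pool 1 stood apart. At an unadjusted p under 0.05, 5 of the 8 were higher, and limma voom called 2, the likelihood ratio test 3 and DESeq2 0 of them. Slc28a2 had 0.982 CPM in that pool and 1.14 CPM in the other old pool. The 7 enteroendocrine markers summed to 27.2 and 129 CPM in the young pools against 115 and 79.9 CPM in the old, with 0 of 6 kept called by the quasi-likelihood test, 2 higher at an unadjusted p under 0.05 and 1 (Gip) called by the likelihood ratio test. The 7 goblet markers had 0 genes called, 0 at an unadjusted p under 0.05 and 0 called by the other tools, and sums between 1942 and 2653 CPM over both ages. Of 6 tuft markers Dclk1 was higher in old ISCs (not by limma voom), and all 6 together summed to at most 6.72 CPM in a library, with Il25 at 0. Cycling cell markers had 0 of 6 genes called by each of the 4 tests and 0 at an unadjusted p under 0.05 by the quasi-likelihood test (limma voom had 1, Mki67), and sums of 1383 and 1433 CPM in the young pools against 1462 and 1631 CPM in the old. Of 7 leukocyte markers Itgam was higher in old ISCs (not by DESeq2), and the list summed to 10.5 and 13.2 CPM in the young pools against 20.1 and 20.9 CPM in the old, nearly all of it from Itgam (10.2 and 13.0 against 19.2 and 20.6 CPM), with Cd79a, Itgax and Adgre1 at 0 in all libraries and Ptprc at 0 in both young pools. Stromal and endothelial markers had 0 of 2 kept genes called by any of the 4 tests. At an unadjusted p under 0.05, limma voom and the likelihood ratio test had 1 (Pdgfrb, lower), and the quasi-likelihood test and DESeq2 had 0. This list summed to 2.48 and 3.37 CPM in the young pools against 1.74 and 1.31 CPM in the old, with Col1a2, Col3a1, Pdgfra and Cdh5 at 0. Single genes were lower in both old pools for 23.6% of all genes tested.

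Position along the small intestine was described with genes of its ends, since nucleoside transporters vary along the gut. Of 4 proximal genes kept (Gata4, Onecut2, Pdx1 and Lct), 0 had FDR or an unadjusted p under 0.05 by any of the 4 tests, and the list summed to 181 and 170 CPM in the young pools against 186 and 189 CPM in the old. Of 4 distal genes kept, 0 had FDR under 0.05 by any of the 4 tests, but Fabp6 and Hoxb7 were higher at an unadjusted p under 0.05 by edgeR's quasi-likelihood test (16.9% of all genes tested had such a p), and their list summed to 28.8 and 31.2 CPM in the young pools against 44.5 and 35.9 CPM in the old. The distal sum was higher in both old pools, as single genes were for 24% of all genes tested, and whether it bears on Slc28a2 was not tested.

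The genes around Slc28a2 were described from their positions. Of 22 other genes within 250 kb of it, 8 were kept, 4 with a positive and 4 with a negative log2 fold change, and their median was -0.01. Slc30a4, a zinc transporter 220 kb after the end of Slc28a2, was the 1 gene called, beside 2.26% of all genes tested. Its gene body overlaps that of 4930417H01Rik on the opposite strand. It had 363 and 393 counts in the young pools against 521 and 457 in the old, and its log2 fold change of 0.59 had a standard error of 0.14 and FDR = 0.031 by edgeR. Without young pool 1 the FDR was 0.218, without young pool 2 it was 0.0892, by DESeq2 it was 0.0593 and with total counts 0.644, while over all alternatives it ranged from 0.0078 to 0.644. Duoxa2, whose gene body overlaps that of Duoxa1 on the opposite strand and which encodes the maturation factor of the dual oxidase Duox2, had 32 and 3 counts in the young pools against 2 and 0 in the old. Nearly all of its reads came from young pool 1 and the other pools lay at or under the floor of 3 counts, so that no fold change is given for it. Its FDR was 0.15 by edgeR and ranged from 0.0095 to 0.483 over the alternatives in which it was kept, which leaves out the fit without young pool 1 and both stricter filters on low counts. Shf, an adaptor protein gene and the nearest kept gene before Slc28a2, had a value of -0.79 on the log2 scale, with a standard error of 0.54 and FDR = 0.48.

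**Figure D4:**
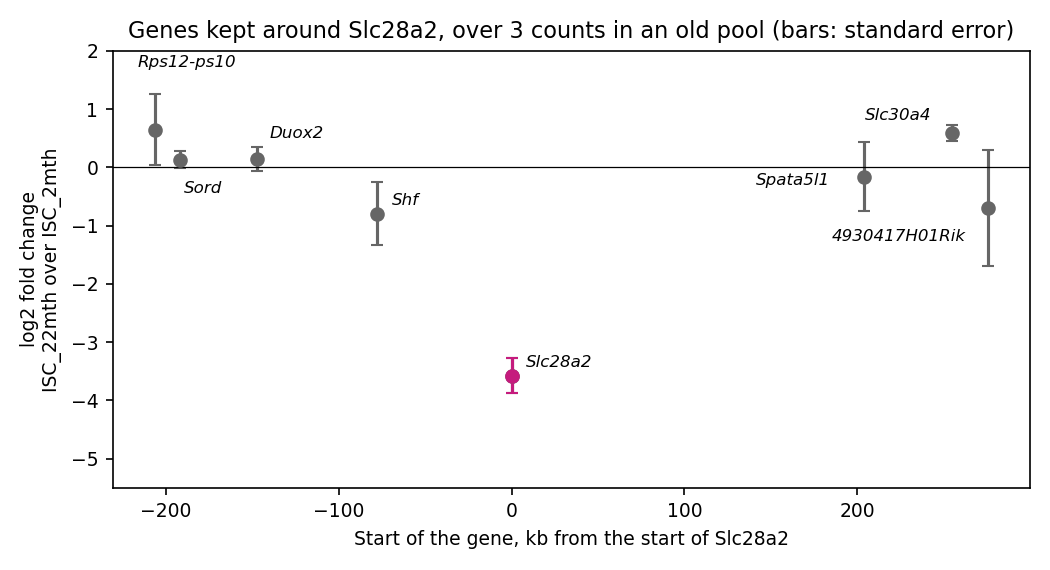
Log2 fold change between ages (vertical axis, bars are standard errors) of genes kept within 250 kb of Slc28a2, without Duoxa2 (old pools under the floor of 3 counts), by the distance of each start from the start of Slc28a2 in kb (horizontal axis, Slc28a2 in pink). Slc28a2 lies at -3.57 and the other 7 genes between -0.79 and 0.65.

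The genes whose pattern over the 4 pools was most like that of Slc28a2 were all expressed at lower levels. Likeness was the distance between log2 CPM values (prior count 2) centred on the mean of each gene, over the 4 libraries, and the closest were Frem2 with 0.67, Cacnb1 with 0.75, Sdr16c5 with 0.89, Rps4l with 0.90 and AC159649.2 with 0.94. Frem2, a gene of the extracellular matrix, had 30 and 26 counts in young ISCs and 2 in each old pool. Cacnb1, a calcium channel subunit, had 23 and 10 counts against 0 in both old pools. Rps4l, a ribosomal protein S4 gene copy, had 22 and 42 counts against 0 in both old pools. Sdr16c5 had 15 and 13 counts in the young pools against 0 and 1 in the old, and AC159649.2 had 13 and 8 counts against 0 in both. Old pools of these genes lay at or under the floor of 3 counts, so that no fold change is given for them. For Slc29a1, the 5 closest genes were 4930579G18Rik, Ccdc174, Gnas, Gm42611 and Ift46, at distances between 0.04 and 0.07. Each of them had its lowest level in old pool 1, as Slc29a1 had, which follows from how they were picked.

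Enzymes that use the transported nucleosides were described from lists of salvage, breakdown and synthesis. Over the 7 lists, 96 genes were in the count table and 79 were kept. Of these, 1 was higher in old ISCs with FDR under 0.05 and 0 were lower, which is 1.27%, beside 2.26% of all genes tested, and 1 gene does not set these shares apart. Their median log2 fold change was 0.13 against -0.0049 for all genes tested, and 12 had an unadjusted p under 0.05 with higher and 4 with lower expression in old ISCs. Of all 13692 genes tested, 16.9% had such a p, 1268 with higher and 1048 with lower expression. The called gene was Cmpk1, the kinase that turns UMP and CMP into their diphosphates. It had 781 and 909 counts in the young pools against 1401 and 999 in the old, or 57.0 ± 4.48 CPM against 93.8 ± 17.1 CPM (n = 2 pools each). The pools did not overlap between ages, and the log2 fold change of 0.72 had a standard error of 0.14 and FDR = 0.0096 by edgeR. Scaled by total counts alone its value was 0.23 with FDR = 0.229. The study's own list of genes with FDR under 0.05, from the same libraries, holds Cmpk1, Uprt, Rrm2, Dut and Adss, all higher in old ISCs.

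Purine salvage and breakdown, which handles the preferred substrates of Slc28a2, had 20 genes kept and 0 called by edgeR's quasi-likelihood test, with a median log2 fold change of 0.17. DESeq2 and limma voom also called 0, and the likelihood ratio test called 1 (Xdh). At an unadjusted p under 0.05, 3 had higher and 1 had lower expression, beside 16.9% of all genes tested. Xdh, which oxidizes hypoxanthine and xanthine to uric acid, had a value of 0.84 with standard error 0.25 and FDR = 0.085. Hprt, which salvages hypoxanthine and guanine, had a value of 0.46 (FDR = 0.20), and Pnp, which splits purine nucleosides into base and sugar phosphate, had 0.33 (FDR = 0.29). Ampd3, an AMP deaminase, had a value of -0.48 (FDR = 0.25). Hprt had 771 counts in old pool 1 and 434 in old pool 2. Its log2 fold change was 0.05 without old pool 1 and 0.77 without old pool 2, so its value rests largely on old pool 1.

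Pyrimidine salvage and breakdown had 17 genes kept, with Cmpk1 called and a median log2 fold change of 0.32. At an unadjusted p under 0.05, 4 had higher and 2 had lower expression, beside 16.9% of all genes tested (Uck1, and the thymidine kinase gene Tk1 with -0.35, FDR = 0.23, also picked out after its value was seen). Uprt, a homolog of uracil phosphoribosyltransferase, had 214 and 200 counts in the young pools against 301 and 257 in the old. Its value of 0.65 (standard error 0.17) had FDR = 0.0515 by edgeR, just outside the threshold, and over the alternatives the FDR ranged from 0.0171 (without old pool 2) to 0.543 (total counts). Dut, which removes dUTP, had a log2 fold change of 0.50 (FDR = 0.096), which was 0.32 without young pool 1 (FDR = 0.623) and 0.70 without young pool 2 (FDR = 0.0354), with FDR = 0.0201 without old pool 1. Upb1, which completes the breakdown of uracil and thymine, had 1.07 (standard error 0.36, FDR = 0.13). The purine synthesis list had 13 genes kept and 0 called by the same test, of which 2 had higher and 1 had lower expression at an unadjusted p under 0.05. DESeq2 and limma voom called 0 and the likelihood ratio test called 1 (Adss). Adss, which commits IMP to AMP, had a log2 fold change of 0.44 (FDR = 0.078), Paics had 0.29 (FDR = 0.22) and Pfas had -0.38 (FDR = 0.25), which was -0.25 without young pool 1 (FDR = 0.786) and -0.875 with total counts (FDR = 0.00093). The pyrimidine synthesis list had 5 genes kept, 0 called and 0 at an unadjusted p under 0.05 by each of the 4 tests, with log2 fold changes between -0.20 and 0.12.

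Of 4 genes of deoxynucleotide balance, 0 were called by edgeR's quasi-likelihood test and 1 had an unadjusted p under 0.05. This was Rrm2, the regulated subunit of ribonucleotide reductase, with 344 and 387 counts in the young pools against 457 and 462 in the old. Its value of 0.55 had a standard error of 0.14 and FDR = 0.051, DESeq2 called 0 of the 4, limma voom and the likelihood ratio test called Rrm2, and over the alternatives its FDR ranged from 0.0126 (without old pool 1) to 0.771 (total counts). The list of extracellular nucleotides and adenosine had 16 of 26 genes kept and 0 called (also 0 by DESeq2 and limma voom, 1 by the likelihood ratio test), with 2 at an unadjusted p under 0.05. These were Alpi, the intestinal alkaline phosphatase, with a log2 fold change of 0.84 (FDR = 0.077) that was 0.51 without young pool 1 (FDR = 0.507) and 1.27 without young pool 2 (FDR = 0.00139), and Dpp4, a peptidase that binds adenosine deaminase in some species, with 0.36 (FDR = 0.13). Alpi also belongs to the enterocyte markers above. Of the other nucleobase and nucleotide carriers, 4 of 5 were kept, 0 were called and 0 had an unadjusted p under 0.05 by each of the 4 tests, with log2 fold changes between -0.19 and 0.18. Of the 79 genes kept in these lists the lowest value, picked out after its value was seen, was -0.95 for the uridine-cytidine kinase gene Uck1 (FDR = 0.27).

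**Figure D5:**
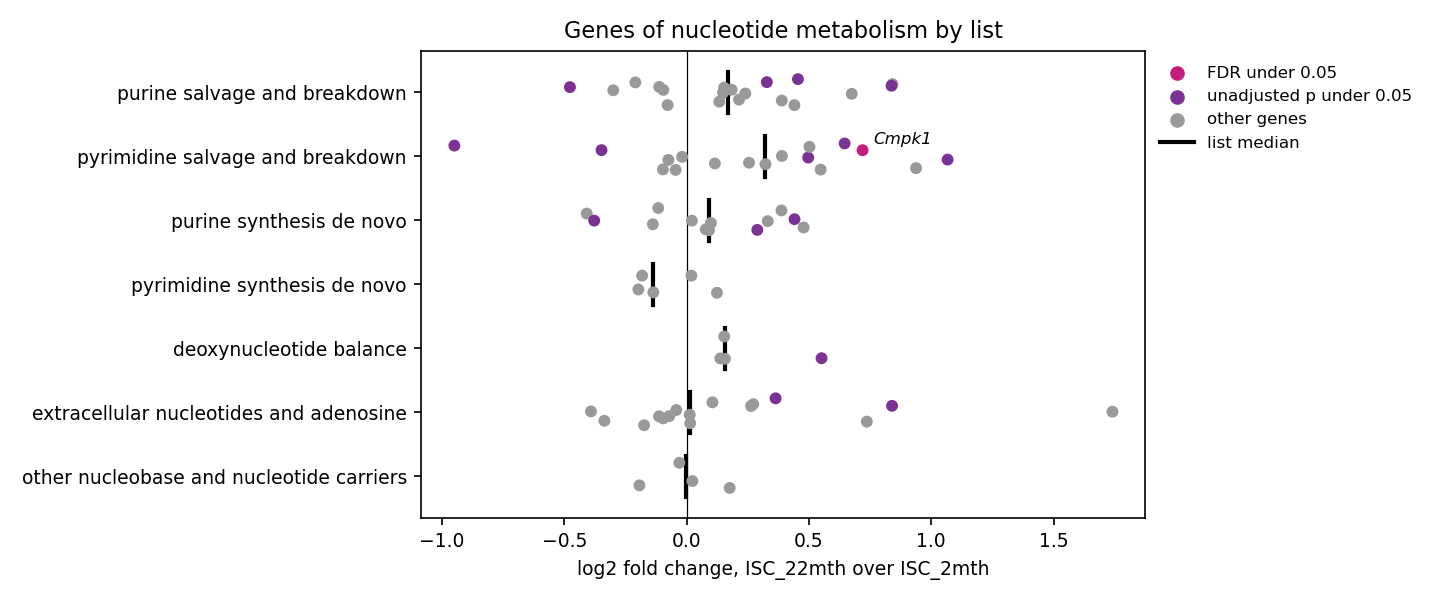
Log2 fold change between ages (horizontal axis) of the genes kept in each list of nucleotide metabolism (vertical axis, with points spread only to separate them). Pink marks FDR under 0.05, purple an unadjusted p under 0.05 and black lines the list medians, which lie between -0.14 and 0.32. Cmpk1 at 0.72 is the 1 gene called.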

How the data were processed

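The authors trimmed single-end reads with Trimmomatic (0.30), aligned them to GRCm38 with STAR (2.4.2a) and used featureCounts on GENCODE vM15 exons, and the counts they deposited are raw (tools and builds per the labels' processing notes and the Methods). How strand and multiply aligned reads were handled is not given in the sources used here. Ages and replicate numbers came from the sample labels. Nothing states whether pools of an age were also processed apart, so p-values rest on the spread between these pools. With 2 residual degrees of freedom, edgeR moderates the spread of each gene with that of all genes, and p-values depend on both. Chi-square per gene between the pools of an age was 13.3 (ISC_2mth) and 7.78 (ISC_22mth), above counting noise.

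From the counts, the study's filter (over 5 reads and over 1 CPM in 1 or more libraries), TMM normalization and edgeR (4.0.16, R 4.3.3) glmQLFTest without covariates were used, with FDR 0.05 over 13692 genes. Standard errors came from the log2 fold change and the F value, so they also rest on the moderated spread. The fits were also run on simulated counts, whose outcome is not given, and nothing here rests on it. Alternatives were limma 3.58.1 voom with sample quality weights, DESeq2 1.42.0, the likelihood ratio test, other normalizations and filters, a replicate block and each pool left out. The Methods name limma voom for differential expression, and also edgeR's likelihood ratio test for comparing these ages. An exact permutation test of 2 against 2 pools cannot give a p below 0.333 and was not used.

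The transporters, lists and tests were chosen with earlier results of these data known. Named genes are the transporters and the paralog, list genes called or among the 4 of lowest p (described singly at an unadjusted p under 0.05), the 5 closest patterns and neighbours within 250 kb, of which 3 were chosen for the text after their values were seen. Markers called in other lists are named as well, and 2 genes of the marker lists are not reported here and were left out of the sums. Positions, lengths and 50-nt stretches (exact match, either strand, transcripts only) came from GENCODE vM21, and upstream windows from RefSeq. Intervals and floors (3 counts, 95% intervals) cover counting error only, as amplified reads are not independent molecules. Protein sequences were not used here.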

Additional observations from a re-analysis of the deposited data

How the results depend on the processing

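The log2 fold change of Slc28a2 ranged from -3.68 to -3.46 with a pool left out. With all pools, the alternatives besides total counts gave values between -3.62 (upper quartile) and -3.54 (limma voom). All of these fits reuse the counts of a gene that the contrast chose, so their closeness is a description only. Scaling by total counts gave -4.07, which is -3.57 after the shift of all genes by -0.50 that this scaling brings. In young ISCs the mean level per kb of Slc28a2 was the highest of the set on both length scales, but its pools overlapped those of Slc29a3 per kb of all exonic bases. Genes called between ages numbered 309, and 4632 with total counts (96 higher and 4536 lower, against 223 and 86), 554 without a filter, 611 by the likelihood ratio test, 197 by DESeq2, 624 with the replicate block and between 151 (without young pool 1) and 710 (without old pool 2) with a pool left out. For the lists of nucleotide metabolism the 1 called gene became 25 with total counts (all 25 lower), 4 without a filter, 3 by limma voom, 6 by the likelihood ratio test, 7 with the replicate block and between 1 and 7 (7 without old pool 2) with a pool left out. The 25 follow the shift of all genes, and the causes of the other differences were not tested. Pools of the same number are different animals, and whether they were processed together is not stated. Their deviations had a correlation of -0.00015 over all genes tested. With the replicate block Slc28a2 had a log2 fold change of -3.57. Cmpk1 kept FDR under 0.05 in each alternative but total counts. With total counts the log2 fold changes of Dpp4 (-0.13), Hprt (-0.047), Pnp (-0.16), Adss (-0.050) and Paics (-0.20) turned negative, while each stayed positive relative to the shift of all genes. A single pool left out moved the log2 fold change of Slc29a1 between -0.45 and 0.10, of Slc29a2 between -0.51 and 0.01 and of Slc29a3 between -0.06 and 0.32, so their signs are not fixed by these data. Depth limits Slc29a4 in all pools and Slc28a1 in the young pools, which lay near the floor of 3 counts.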
